A study of Mus musculus with 16 samples.

Results

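The genes described here are the mitochondrial ribosomal proteins, the 76 genes of 19505 measured whose symbol in the platform annotation starts with Mrpl or Mrps followed by a digit. There were 48 Mrpl and 28 Mrps genes, each read by 1 probe set. They were measured in liver RNA of C57BL/6 mice on 1-colour Affymetrix-type arrays, in 8 samples of a model of nonalcoholic steatohepatitis (NASH), a fatty liver with inflammation, and 8 control samples. How the model was produced, and the age and sex of the animals, are not given in the sources used here. The NASH model samples are numbered 1a, 1b and 2 to 7 and the controls 1, 3 to 7, 9 and 10, after their labels. The labels do not say whether every sample is from a different animal, and the p-values cover only the spread among these samples, which may be partly technical.

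Mitochondria have a ribosome of their own, which makes only the few inner-membrane proteins encoded by mitochondrial DNA, all of them core subunits of the respiratory chain and ATP synthase. Its proteins are all encoded in the nucleus, made on cytosolic ribosomes and imported. Some of them descend from the bacterial ribosome and others were added in the mitochondrial lineage. Liver is rich in mitochondria and depends on this ribosome for oxidative metabolism. The small subunit holds the decoding site and the large subunit joins amino acids. Symbols do not always give the subunit: Mrps30 and Mrps18a sit in the large subunit, and Mrps36, named as a small subunit protein, is now known as a part of the 2-oxoglutarate dehydrogenase complex of the citric acid cycle.

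The signals were log2 values, quantile-normalized between arrays here, and a gene was called at an adjusted p under 0.05 in limma over all genes. In NASH model livers 17 of the 76 genes were lower and 3 were higher than in controls, and 56 were not called. Together 20 genes, or 26.3%, were called, against 26.6% of all genes measured, so the share of called genes was near the background. The split by direction differed from it: 22.4% were lower, against 13.4% of all genes, and 3.95% were higher, against 13.2% of all genes. With the arrays centred on their hybridization spike-in controls instead, the split turned to 5 higher and 4 lower genes, against 17% and 6.04% of all genes. All genes here include many dim ones. Without the dimmest 40% of genes, 34.2% of the family were called, against 44.2% of the 11703 brighter genes. There 30.3% were lower, against 23.5%, and 3.95% were higher, against 20.7%.

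The changes were small. The genes called lower had between 0.657 and 0.823 times the control signal, and the genes called higher between 1.19 and 1.35 times. None of the called genes reached a 2-fold difference (0 of 76), which 5.22% of all genes did. The groups did not overlap for 3 genes, all lower in the NASH model, or 3.95% of the family, against 3.89% of all genes lower without overlap and 9.54% in both directions. The median difference of the 76 genes was -0.12 on the log2 scale, against -0.04 for all genes, and it was 0.04 with spike-in centring, against 0.06 for all genes. All 76 genes were above the background floor of 2.89 in all 16 samples, so no value was a bound.

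**Figure D1:**
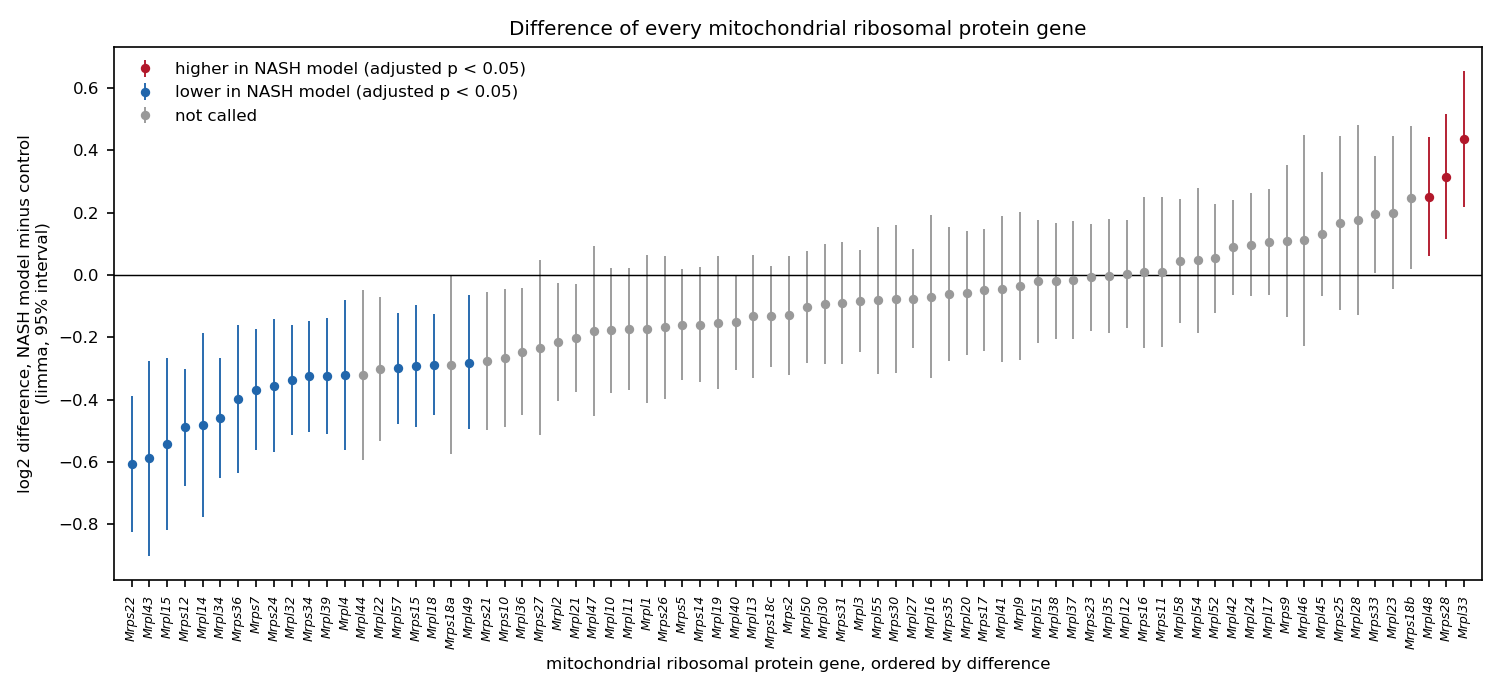
Log2 difference of each of the 76 genes, NASH model minus control, with its 95% interval from limma (n = 8 per group), ordered from the lowest to the highest. The 17 genes called lower fill the left end, from Mrps22 to Mrpl49, and the 3 called higher are Mrpl48, Mrps28 and Mrpl33 at the right.

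Most of the genes were not called. The 56 uncalled genes had differences from -0.32 to 0.25, and for 52 of them the 95% interval lay within 0.5 of 0 on either side. For 45 of the 76 genes the interval included 0, and 11 more missed the adjusted threshold with an interval that excluded it. Before adjustment, 31 genes had a limma p under 0.05. The shares of all genes with such a p or interval are not given here, so these counts have no background. Differences lay below 0 in 56 of 76 genes (73.7%), against 56.8% of all genes, and in 32 with spike-in centring.

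Promoter sequences are shown for 4 of these genes: Mrps22, Mrps12 and Mrpl34, which with Mrpl15 were the 4 genes called lower under every one of 29 alternative settings, and Mrpl33, the gene with the largest rise. Each window runs from 250 bases before to 50 bases after the annotated start (RefSeq, GRCm38.p6) and is read 5′ to 3′ on the gene's strand. Capitals mark the letters CCGGAAG (the core of sites for GABP, an ETS factor of nuclear genes for mitochondria), GCGCATG (NRF1, a regulator of respiratory genes), AAGATGG (YY1) and GGGCGG (the GC box of Sp1), on either strand.
Mrps22: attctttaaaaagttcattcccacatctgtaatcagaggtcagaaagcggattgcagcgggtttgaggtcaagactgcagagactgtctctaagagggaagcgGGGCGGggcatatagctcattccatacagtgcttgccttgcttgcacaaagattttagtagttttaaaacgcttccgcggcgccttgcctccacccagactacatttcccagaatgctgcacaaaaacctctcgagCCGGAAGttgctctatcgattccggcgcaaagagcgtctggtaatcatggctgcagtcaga
Mrps12: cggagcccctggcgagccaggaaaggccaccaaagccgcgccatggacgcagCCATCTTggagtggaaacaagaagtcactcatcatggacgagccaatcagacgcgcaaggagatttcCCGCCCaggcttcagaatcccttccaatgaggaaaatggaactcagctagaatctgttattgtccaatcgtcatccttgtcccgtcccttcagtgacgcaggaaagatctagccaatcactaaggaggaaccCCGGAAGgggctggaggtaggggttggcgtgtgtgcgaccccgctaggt
Mrpl34: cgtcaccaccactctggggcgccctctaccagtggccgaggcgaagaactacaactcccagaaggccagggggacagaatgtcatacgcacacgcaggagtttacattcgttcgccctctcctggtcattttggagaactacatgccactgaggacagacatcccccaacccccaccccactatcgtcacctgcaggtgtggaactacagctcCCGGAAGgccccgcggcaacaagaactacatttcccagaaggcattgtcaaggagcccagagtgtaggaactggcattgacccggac
Mrpl33: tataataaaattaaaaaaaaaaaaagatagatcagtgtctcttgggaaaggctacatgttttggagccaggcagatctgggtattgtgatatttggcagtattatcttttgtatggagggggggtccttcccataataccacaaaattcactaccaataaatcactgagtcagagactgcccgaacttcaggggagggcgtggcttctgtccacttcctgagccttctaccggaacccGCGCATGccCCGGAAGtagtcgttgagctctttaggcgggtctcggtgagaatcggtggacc
The windows are chr9:98601630-98601929 on the minus strand for Mrps22, chr7:28741772-28742071 on the minus strand for Mrps12, chr8:71464676-71464975 on the plus strand for Mrpl34 and chr5:31613701-31614000 on the plus strand for Mrpl33. The 4 windows shown hold the GABP letters, which most lower genes with a window lack, and Mrpl33 alone of the 4 holds the NRF1 letters.

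Of the 76 genes, 67 had a promoter window, some of them more than 1, giving 73 windows. The GABP letters were in 34.2% of these windows, against 8.86% of the 32851 windows of the same length in the table. The NRF1 letters were in 11% against 3.91%, the YY1 letters in 17.8% against 6.34%, and the GC box in 52.1% against 35.7%. Counted by gene rather than window, the GABP letters were in 37.3% of the family and 13.2% of the 15691 measured genes with a window. By the same count the NRF1 letters were in 11.9% against 5.59%, the YY1 letters in 19.4% against 7.29%, and the GC box in 49.3% against 51.2%. The GABP letters occurred in 6 of 14 lower genes, 2 of 2 higher genes and 17 of 51 uncalled genes, so genes of all 3 kinds carried them. The YY1 letters were in 5 of 14 lower, 0 of 2 higher and 8 of 51 uncalled genes. The GC box was in 12 of 14 lower, 1 of 2 higher and 20 of 51 uncalled genes, and these differences by call were not tested. A match of letters is a description of the window, not a measured binding site.

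Many of these genes share their start region with a neighbour on the other strand. This head-to-head arrangement held for 24 of the 67 genes (35.8%), against 13.2% of measured genes with a window. For 22 of them the neighbour was also measured. Both were called lower in 1 case, Mrpl14 with Tmem63b. The member was called and the neighbour was not in 7, and the reverse in 2. In 11 cases neither was called, with Mrps11 and Mrpl46, which face each other, counted once from each side. Of all genes 26.6% were called, and no rate of shared calls is given for other head-to-head pairs. Ska3 and Eme1, the neighbours of Mrpl57 and Mrpl27, count as not called but were below the background floor of 2.89 in all samples. Mrpl49, lower by 0.28, lies head to head with Fau, which encodes a ubiquitin-like protein fused to a cytosolic ribosomal protein and was higher (log2 difference 0.256, adjusted p = 0.012). Mrps12 lies opposite Sars2, the mitochondrial seryl-tRNA synthetase, which had a difference of -0.246 and was not called (adjusted p = 0.12). Mrpl43 lies opposite Twnk, the mitochondrial DNA helicase, at -0.33 (adjusted p = 0.062, not called).

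The small subunit held the largest fall. Mrps22, a protein added in the mitochondrial lineage whose human variants cause a respiratory chain deficiency, had signals of 4.93, 5.09, 4.94, 5.12, 4.92, 5.43, 4.80 and 4.98 in NASH model samples 1a, 1b and 2 to 7. Controls 1, 3, 4, 5, 6, 7, 9 and 10 had 5.92, 5.78, 5.49, 5.58, 5.65, 5.32, 5.78 and 5.53. The groups touched at 1 sample each, with NASH model 5 above control 7, and the other 7 NASH model samples were below all controls. The difference was -0.61 ± 0.10 (SE, n = 8 per group, adjusted p = 0.000166).

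Mrps12 is the counterpart of bacterial S12, the protein at the decoding site in which streptomycin resistance arises in bacteria. Its signal was between 5.68 and 6.16 in NASH model samples, with a median of 5.84, and between 6.19 and 6.60 in controls, with a median of 6.34. The groups did not overlap, and the closest samples were NASH model 5 and control 10. The difference was -0.49 ± 0.09 (SE, n = 8 per group, adjusted p = 0.000321).

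Mrps7, the counterpart of bacterial S7, which organises the head of the small subunit, was the second such gene of this subunit. Its NASH model values ran from 6.84 to 7.45 with a median of 7.30, and its control values from 7.48 to 7.78 with a median of 7.58. NASH model 3 was the lowest, and no NASH model sample reached the lowest control. The difference was -0.37 ± 0.09 (SE, n = 8 per group, adjusted p = 0.00499), and with spike-in centring it was no longer called (-0.30, adjusted p = 0.0582).

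Of the remaining small subunit genes, Mrps24, Mrps34 and Mrps15 were also lower. Mrps24, the counterpart of bacterial S3 near the entry of the messenger RNA, had a difference of -0.35 ± 0.10 (adjusted p = 0.0129), with 4 NASH model samples below all controls. Mrps34, mutated in a human form of Leigh syndrome, had -0.33 (adjusted p = 0.00711) and Mrps15, the counterpart of bacterial S15, had -0.29 (adjusted p = 0.0249). None of these 3 was called with spike-in centring, where Mrps34 had an adjusted p of 0.185. In all, 6 of the 25 small subunit genes were lower (24%, against 13.4% of all genes) and 1 was higher (4%, against 13.2%). Their median difference was -0.13, against -0.04 for all genes. With spike-in centring 2 were lower (8%, against 6.04%) and 3 higher (12%, against 17%), and the median was 0.003, against 0.06.

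Mrps36, outside both subunits, was lower as well. Its NASH model signals ran from 4.84 to 5.41 and its control signals from 5.33 to 6.05, so that the groups overlapped, and the difference was -0.40 ± 0.11 (SE, n = 8 per group, adjusted p = 0.0122). It was not called on the deposited scale (adjusted p = 0.0655) or with spike-in centring (adjusted p = 0.277).

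In the large subunit 10 of 50 genes were lower (20%, against 13.4% of all genes) and 2 were higher (4%, against 13.2%). With spike-in centring 2 were lower (4%, against 6.04%) and 2 higher (4%, against 17%). Mrpl15, the counterpart of bacterial L15, was the large subunit gene whose groups did not overlap. Its signals were 5.17, 5.18, 5.54, 5.59, 5.53, 5.52, 5.46 and 4.75 in NASH model samples 1a, 1b and 2 to 7, against 6.43, 5.85, 5.68, 5.77, 5.74, 5.78, 6.07 and 5.76 in controls 1, 3, 4, 5, 6, 7, 9 and 10. NASH model 7 was the lowest and control 1 the highest, and all other values lay between 5.17 and 6.07. The difference was -0.54 ± 0.13 (SE, n = 8 per group, adjusted p = 0.00403), and it was called under all 29 alternatives.

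Mrpl34, the counterpart of bacterial L34, one of the smallest proteins of the subunit, had NASH model signals of 5.98 to 6.40 (median 6.33) and control signals of 6.38 to 6.95 (median 6.79). Only control 9 came within the NASH model range. The difference was -0.46 ± 0.09 (SE, n = 8 per group, adjusted p = 0.000789). Mrpl43, a mitochondria-specific protein, differed by -0.59 ± 0.15 (adjusted p = 0.00561), with NASH model values of 4.61 to 5.35 and control values of 5.14 to 6.42. The spread of Mrpl43 among controls, an SD of 0.39, was the widest in the family there, and control 1 was its highest value. With spike-in centring it was not called (adjusted p = 0.109).

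Mrpl14, the counterpart of bacterial L14 at the face that meets the small subunit, differed by -0.48 ± 0.14 (adjusted p = 0.0145). Its NASH model values ran from 4.99 to 5.86 and its control values from 5.60 to 6.29, and the call was lost on the deposited scale (adjusted p = 0.0501). Mrpl32, which a protease of the inner membrane trims before it joins the ribosome in yeast, differed by -0.34 ± 0.08 (adjusted p = 0.00483), with 7 of 8 NASH model samples below all controls. Mrpl39 (-0.33), Mrpl57 (-0.30), Mrpl18 (-0.29), Mrpl4 (-0.32) and Mrpl49 (-0.28) were the other large subunit genes called lower. Mrpl49 lay nearest the threshold among called genes (adjusted p = 0.0494), and Mrpl22, beside the exit tunnel, lay nearest among the uncalled ones at -0.30 ± 0.11 (adjusted p = 0.05 after rounding).

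**Figure D2:**
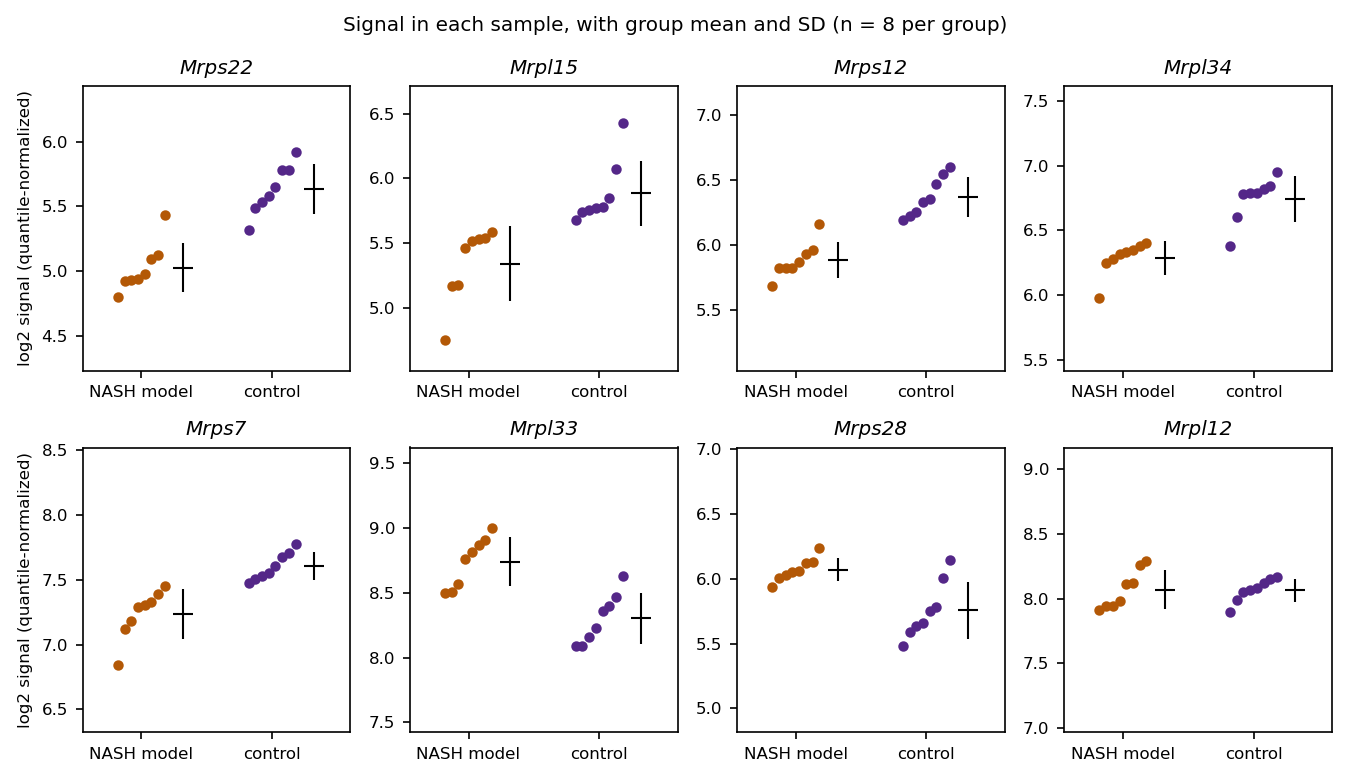
Log2 signal in each NASH model sample (left in each panel) and each control sample (right) for 8 genes, with the group mean and SD beside the points (n = 8 per group); every panel spans the same range of log2 units. The NASH model samples of Mrpl15, Mrps12 and Mrps7 lie below all controls, 5 of those of Mrpl33 and 1 of those of Mrps28 lie above all controls, and the groups of Mrpl12 cover each other.

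The 3 genes that were higher belonged to both subunits. Mrpl33, the counterpart of bacterial L33, had signals of 8.87, 8.91, 8.76, 8.82, 8.50, 8.51, 8.57 and 8.998 in NASH model samples 1a, 1b and 2 to 7, against 8.63, 8.47, 8.40, 8.23, 8.36, 8.09, 8.09 and 8.16 in controls 1, 3, 4, 5, 6, 7, 9 and 10. It also had the highest mean signal of the family. NASH model 4, 5 and 6 lay below control 1, and the other 5 NASH model samples were above all controls. The difference was 0.44 ± 0.10 (SE, n = 8 per group, adjusted p = 0.00342).

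Mrps28, a small subunit protein related to bacterial S1, had NASH model signals of 5.94 to 6.24 and control signals of 5.48 to 6.15. The SD was 0.09 among NASH model samples and 0.22 among controls, and controls 1 and 6 lay within the NASH model range. The difference was 0.31 ± 0.10 (SE, n = 8 per group, adjusted p = 0.019). Mrpl48, a protein of the central protuberance of the large subunit, differed by 0.25 ± 0.09 (adjusted p = 0.0483). All 8 NASH model values of Mrpl48 were above the control median, but its call was kept in only 8 of 29 alternatives.

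Genes of best-known function were among those not called. Mrpl12, in the stalk that recruits translation factors, had a difference of 0.00 ± 0.08 (95% interval -0.17 to 0.18), with signals of 7.91 to 8.29 in NASH model samples and 7.90 to 8.17 in controls. The stalk base gene Mrpl10 had -0.18 (interval -0.38 to 0.02) and Mrpl11 had -0.17 (interval -0.37 to 0.02). Mrpl45, which tethers the ribosome to the inner membrane, had 0.13 (interval -0.07 to 0.33). Mrpl58, which releases stalled chains as a peptidyl-tRNA hydrolase, had 0.04 (interval -0.16 to 0.24). Mrps5, whose bacterial counterpart affects decoding accuracy, had -0.16 (interval -0.34 to 0.02).

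The other genes at the ends of the signal range were also not called. Mrpl42 averaged 8.25 ± 0.10 in NASH model samples and 8.16 ± 0.06 in controls (SD, n = 8 each). At the low end, Mrps18c averaged 4.29 ± 0.11 and 4.42 ± 0.10, Mrpl47 4.823 ± 0.298 and 5.004 ± 0.234, and Mrpl54 5.08 ± 0.23 and 5.03 ± 0.20 in NASH model and control samples (SD, n = 8 each). Signals of different probe sets depend on their probes and do not rank the abundance of the transcripts.

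Bacterial-type and mitochondria-specific proteins both included lower genes. Of the 30 bacterial-type genes of the large subunit 6 were lower, of the 20 mitochondria-specific ones 4, of the 15 bacterial-type genes of the small subunit 4, and of the 10 mitochondria-specific ones 2. The shares were 20%, 20%, 26.7% and 20%, against 13.4% of all genes, and the differences between them were not tested. With spike-in centring these counts were 2, 0, 1 and 1, where 6.04% of all genes were lower.

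Averaged over the 76 genes, the signal was between 6.22 and 6.40 in NASH model samples and between 6.35 and 6.51 in controls. NASH model 5 was the only NASH model sample above the lowest control. In NASH model samples 40 to 57 of the 76 genes were below their control median, against 28 to 46 in controls. On the deposited scale the averages ran from 6.24 to 6.43 in NASH model samples and from 6.34 to 6.50 in controls, and the groups overlapped more.

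**Figure D3:**
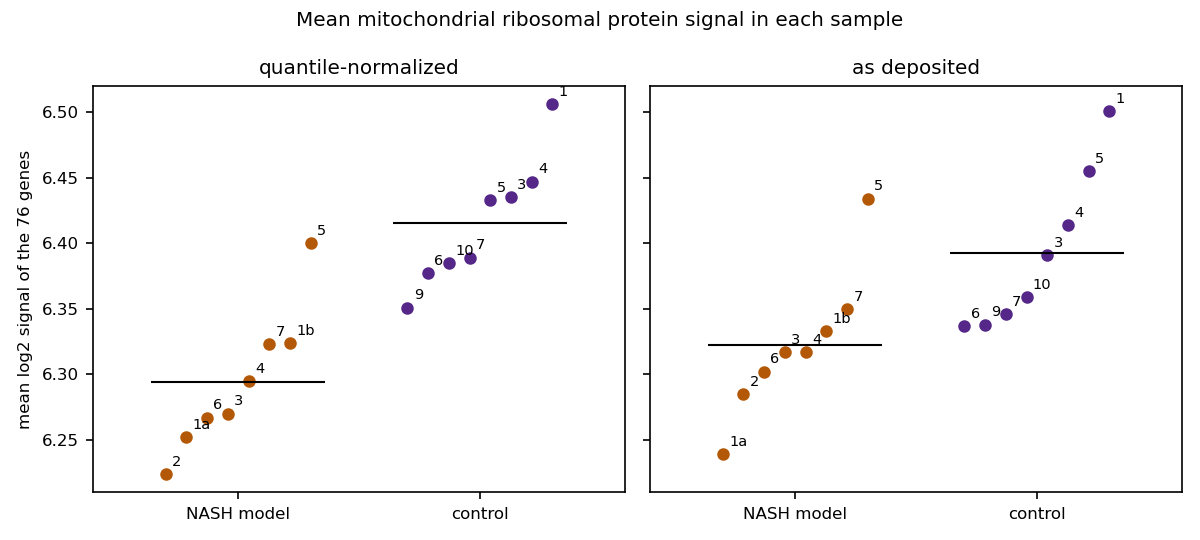
Mean log2 signal of the 76 genes in each numbered sample, NASH model left and control right, after quantile normalization (left panel) and as deposited (right panel); horizontal lines are group means. NASH model 5 reaches into the control range in both panels, and NASH model 7 also does so on the deposited scale.

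Within groups the median SD of the genes was below that of all genes, which include dim ones, and pairs of the genes correlated weakly. Spread was not compared at like signal. The SD of a gene over NASH model samples was between 0.07 and 0.44, with a median of 0.18, against 0.24 for all genes. Over controls it was between 0.06 and 0.39, with a median of 0.17, against 0.28 for all genes. The widest among NASH model samples were Mrpl46, Mrps18a and Mrpl44, with SDs of 0.44, 0.32 and 0.31, and the widest among controls were Mrpl43, Mrpl28 and Mrps25, with 0.39, 0.36 and 0.32. After removing the group means, the median correlation over the 2850 pairs of genes was 0.07 across 16 arrays, against 0.17 for complex I genes and 0.34 for cytosolic ribosomal protein genes. The family's mean signal was 6.29 in NASH model samples and 6.42 in controls. Both other lists were brighter, with 7.65 and 7.82 for complex I and 8.83 and 8.51 for the cytosolic genes. No correlation over all genes was computed. These correlations share the arrays and their scaling and are descriptions only.

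Most cytosolic ribosomal proteins, in contrast, were higher. Of 64 genes listed as cytosolic ribosomal proteins, 51 were higher in NASH model livers (79.7%, against 13.2% of all genes). Another 2 were lower (3.12%, against 13.4%). The median log2 difference was 0.35, and across the 5 scalings 40 to 56 were higher. Rps15a, a small subunit protein, had 7.87 to 8.38 in NASH model samples and 7.10 to 7.49 in controls, a difference of 0.79 ± 0.09 (adjusted p = 2.4e-06). Rpl38 differed by 0.76 and Rps7 by 0.71, and the 2 lower genes were Rps4l and Rpl7l1, both named as relatives of ribosomal proteins. The list also holds Rpl39l, below the background floor of 2.89 in 16 of 16 samples, and Rpl3l, below it in 11. Relative to the median of all genes, the cytosolic list stood at 0.39 and the mitochondrial family at -0.07. With cyclic loess the family stood at -0.07, and as deposited at -0.02. Median centring and spike-in centring shift all genes of an array alike, so they keep the -0.02 by construction and give no separate value.

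Genes that build the mitochondrial ribosome were lower in 8 of 24 cases (33.3%, against 13.4% of all genes) and higher in 1 (4.17%, against 13.2%). With spike-in centring 2 were lower (8.33%, against 6.04%) and 3 higher (12.5%, against 17%). Tfb1m, which methylates the small subunit rRNA, differed by -0.66 ± 0.12 (adjusted p = 0.000384), with 4.15 to 4.88 in NASH model samples and 4.98 to 5.58 in controls. Mterf4, which brings the rRNA methylase Nsun4 to the large subunit, differed by -0.59, and Mterf3, also needed for assembly of that subunit, by -0.49. Mpv17l2, a membrane protein tied to ribosome assembly, was higher by 0.42. Of 4 ribosome proteins with other symbols, Gadd45gip1 was lower (-0.40, adjusted p = 0.0332).

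Genes that work with the ribosome included further lower ones. Of 15 translation factors 5 were lower (33.3%, against 13.4% of all genes), and 3 with spike-in centring (20%, against 6.04%). In the main setting the largest falls were those of the initiation factor Mtif2 (-0.58), the recycling factor Gfm2 (-0.48) and Lrpprc (-0.40), which stabilises mitochondrial messenger RNAs. Of 19 genes of mitochondrial tRNA charging 3 were lower, Nars2 (-0.75), Gatc (-0.58) and Ears2 (-0.43), and Iars2 was higher (0.27). The share of lower genes was 15.8%, close to the 13.4% of all genes, and that of higher genes 5.26%, against 13.2%. With spike-in centring 2 of the list were lower (10.5%, against 6.04%) and 2 higher (10.5%, against 17%). Of 16 genes that copy and transcribe mitochondrial DNA 7 were lower (43.8%, against 13.4% of all genes), among them Polg2 (-0.56), Top1mt (-0.50) and Tfb2m (-0.39). With spike-in centring 0 of the 16 were lower, against 6.04% of all genes. The packaging factor Tfam had -0.29 and was not called (adjusted p = 0.195).

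**Figure D4:**
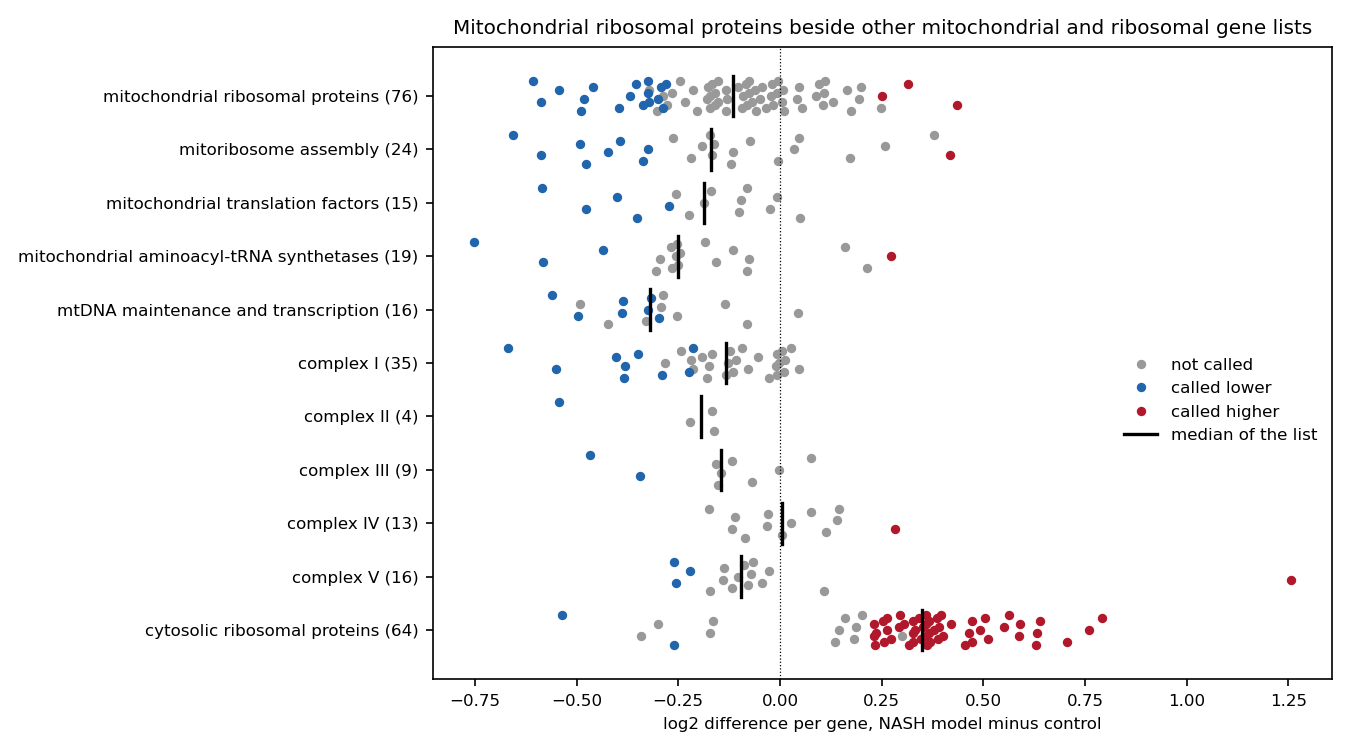
Log2 difference per gene, NASH model minus control, for the 76 mitochondrial ribosomal proteins and 10 other gene lists, with the number of genes in brackets; colours mark the call at an adjusted p under 0.05 and black lines the list medians. The cytosolic ribosomal proteins lie right of 0 with a median of 0.35, and the mitochondrial ribosomal proteins centre at -0.12.

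The nuclear-encoded subunits of the machines that this ribosome serves were lower in 15 of 77 cases (19.5%, against 13.4% of all genes) and higher in 2 (2.6%, against 13.2%). Complex I, which takes electrons from NADH, had 9 of 35 lower, led by Ndufb3 (-0.67), Ndufb11 (-0.55) and Ndufb10 (-0.40). Complex II, which has no subunit made by the mitochondrial ribosome, had Sdha lower (-0.54) among 4 genes. Complex III had Uqcr11 and Cyc1 lower among 9, and complex IV had Cox6b1 higher (0.28) among 13 and 0 lower. In complex V 3 of 16 were lower, and Atpif1, the inhibitor of ATP synthase reversal, was higher by 1.26 ± 0.13 (adjusted p = 4e-07). The 77 genes had 34 lower with median centring (44.2%, against 18.7% of all genes) and 5 with spike-in centring (6.49%, against 6.04%).

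Regulators of mitochondrial biogenesis differed in direction. Myc had the largest difference of the list and was higher (1.23, adjusted p = 0.0202), with an SD of 1.17 among controls. Ppargc1a, the coactivator that drives mitochondrial gene expression, was higher (0.67, adjusted p = 0.047) and its relative Ppargc1b was lower (-0.46). Yy1 was lower with no overlap between groups, at 6.56 to 6.85 in NASH model samples and 6.86 to 7.33 in controls. Gabpb1, a subunit of the factor whose letters are marked in the promoters above, was lower (-0.37), and its partner Gabpa (-0.07, adjusted p = 0.606) and Nrf1 (-0.08, adjusted p = 0.635) were not called. Of the 10 genes in this list 3 were lower (30%, against 13.4% of all genes) and 2 higher (20%, against 13.2%). With spike-in centring 0 were lower, against 6.04% of all genes, and 2 higher (20%, against 17%). Among mitochondrial proteases and chaperones, Lonp1, which degrades damaged matrix proteins, was higher (0.59) and Clpx, the unfolding subunit of another matrix protease, was lower (-1.04). Ddit3, counted in the same list, was higher (0.72, adjusted p = 0.00525).

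Cell markers differed strongly between the groups. In bulk RNA, fewer cells of a type and less RNA per cell cannot be told apart. The markers of macrophages of the recruited and lipid-associated kind were higher in 9 of 9 cases, with a mean signal of 8.13 to 8.74 in NASH model samples and 3.97 to 4.69 in controls, and 8 of 9 stellate cell and myofibroblast markers were higher, with 6.82 to 7.58 and 5.34 to 5.85. Of 10 hepatocyte markers 4 were lower (F7, Cebpa, Hnf4a and Fgb) and 0 were called higher. Apob was not called (0.183, adjusted p = 0.052), but its NASH model samples lay above all controls. The mean signal of the 10 markers was 10.86 to 10.98 in NASH model samples and 11.10 to 11.23 in controls, without overlap. The log2 of their summed signal, which the brightest genes dominate, was 14.93 to 14.98 in NASH model samples and 14.95 to 15.03 in controls. Alb, the albumin gene, had 12.63 to 12.67 in NASH model samples and 12.51 to 12.67 in controls, near the highest deposited value of 12.743. Its difference was 0.015, and 0.243 with spike-in centring. Of all genes 13.2% were higher and 13.4% lower. Higher markers were also counted for cholangiocytes (5 of 7) and for T, B and NK cells (3 of 7). Among these, Cd8a and Tspan8 were below the background floor of 2.89 in 8 of 16 samples. Cldn7 was below it in 7, Cd3e in 3 and Muc1 in 2, and Krt7, Epcam and Nkg7 in 0. Lower markers were counted for Kupffer cells (4 of 7, with 1 higher) and endothelium (4 of 6, with 1 higher). The part of these shifts in the differences of the ribosomal genes was not tested.

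The calls depended on how the arrays were scaled. As deposited, 12 genes were called (26.1% of all genes), 10 lower (11.6%) and 2 higher (14.5%). Centring each array on its median gave 25 called genes (30.8%), 23 lower (18.7%) and 2 higher (12.1%), and cyclic loess gave 17 (25.7%), 14 lower (11.5%) and 3 higher (14.2%). Spike-in centring gave 9 (23%), with the split given above. The exact permutation test over samples called 23 genes (26.1%) and the omission of NASH model 2 and 7 left 16 (22%). Without the dimmest 40% of genes 26 were called (44.2% of the brighter genes). The percentages in brackets are the shares of all genes tested that were called under the same setting.

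Spike-in centring moved the median of all genes by 0.10 on the log2 scale, to 0.06. The spike-in probe sets themselves averaged 9.815 to 10.161 in NASH model samples and 10.006 to 10.233 in controls. Of the 20 called genes 6 were called under all 5 scalings: Mrps22, Mrpl15, Mrps12, Mrpl34, Mrpl33 and Mrps28. Of these, the first 4 were called under all 29 alternatives. As deposited, Mrpl14, Mrpl32, Mrpl39, Mrpl4, Mrpl49, Mrps24, Mrps15, Mrps36 and Mrpl48 were not called. Without NASH model 2 and 7, Mrpl14, Mrpl4, Mrpl49, Mrps15, Mrps36 and Mrpl48 were not called. With NASH model 1a and 1b averaged as 1 sample, 18 of the 20 kept their call, and Mrpl4 and Mrpl48 lost it. The sign of none of the 20 turned under any of these alternatives. With each sample left out in turn, 17 of the 20 were called every time, and Mrpl4, Mrpl48 and Mrpl49 were the exceptions. Mrpl4 was called in 6 of 16 omissions (adjusted p from 0.0205 to 0.0898), namely those of NASH model 1b, 3 and 5 and of controls 3, 5 and 9. Mrpl48 was called in 3 of 16 (0.0248 to 0.0966), those of NASH model 4 and 6 and of control 5, and Mrpl49 in 2 of 16 (0.0085 to 0.102), those of NASH model 1b and 5. Mrpl22, not called in the full set, was called without NASH model 7 or control 6, 7 or 10.

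**Figure D5:**
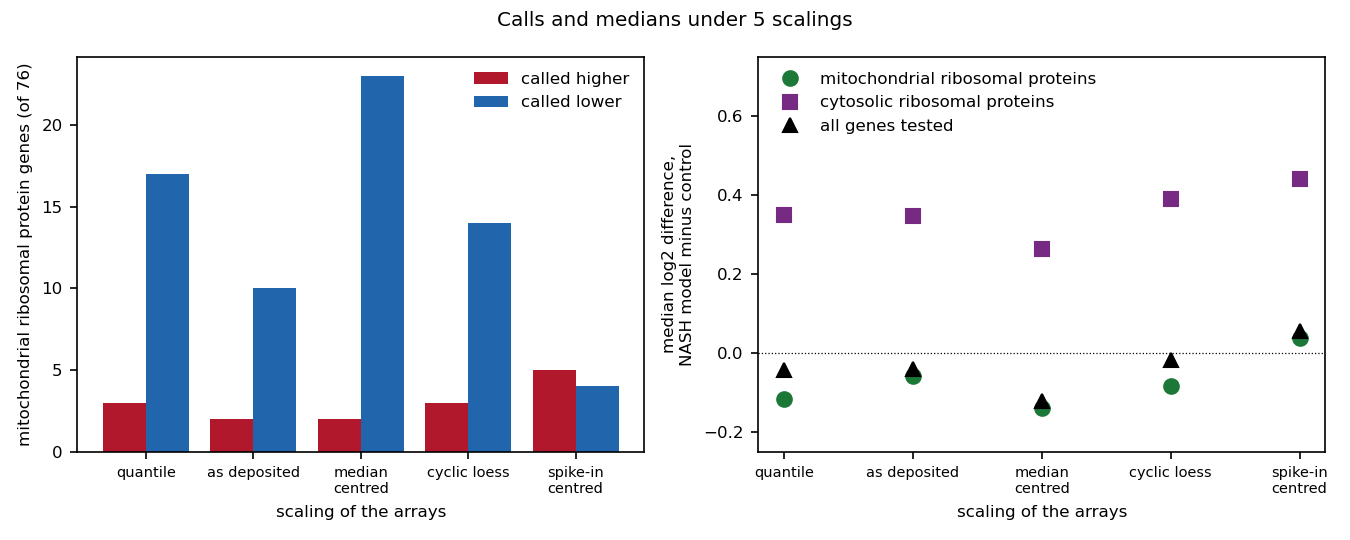
Number of the 76 genes called higher and lower in NASH model livers under 5 scalings of the arrays (left), and the median log2 difference, NASH model minus control, of the family, of the cytosolic ribosomal proteins and of all genes (right). The family has 17 lower genes after quantile normalization and 4 with spike-in centring, where its median is 0.04, while the cytosolic median stays above 0 under all 5.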

How the data were processed

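Total RNA of mouse liver was labelled with biotin and hybridised to arrays, per the labels' protocols. The authors deposited log2 values for 29129 probe sets, and the method behind them and the array's genome build are not given in the sources used here. The column medians ran from 3.52 to 3.66, a range above the limit of 0.1, so the values were quantile-normalized over all probe sets. Of the probe sets 19572 had 1 gene symbol, and the one with the highest mean was kept for each of 19505 genes. The comparison used lmFit and eBayes of limma 3.58.1 under R 4.3.3, two-sided, with Benjamini-Hochberg adjustment over all genes, and exact permutation tests enumerated all 12870 assignments of samples to groups of 8. The fit was tested on simulated data. The background floor is the 95th percentile of 1412 olfactory and vomeronasal receptor genes. The number of arrays limits the precision: standard errors of the 76 genes were 0.07 to 0.16. Named genes were the 10 highest and 10 lowest called members, called members without overlap, and the 3 highest and 3 lowest in mean signal. Those nearest the threshold and the 3 with the largest SD per group were also named. From other lists the 3 called genes with the largest difference were named, except for complex V and most cell markers. The uncalled members and list genes named for their role, and the neighbours, were chosen after their values were seen. Members and lists were chosen with earlier results of these data known. The alternatives were 4 other scalings, leaving out the dimmest 40% of genes, averaging probe sets, eBayes options, array weights, the treatment of samples 1a and 1b, omission of samples, a replicate block and the exact test. Mrpl53 and Mrps6 are not analysed here. Promoter windows came from RefSeq.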

Additional observations from a re-analysis of the deposited data

Results flagged for a closer look

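The screen covered 50 groups of 8 values (25 named genes in both groups). In 4 of them a sample lay far from the others by Dixon's test at its 95% critical value. Chance alone gives this in about 5% of groups chosen without regard to their values. Some of the named genes were chosen for a large SD or for their call, so the 4 cannot be set against that rate. Mrpl34 had a signal of 5.98 in NASH model 4, with the rest of that group at 6.25 to 6.40. Mrpl49 had 7.01 in control 5, with the remaining controls at 6.80 to 6.88. Mrpl28, a large subunit protein not called between the groups, was flagged in both: NASH model 2 lay at 5.0 while its group was otherwise at 5.45 to 5.74, and control 1 lay at 6.14 while the remaining controls were at 5.04 to 5.55.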

How the results depend on the processing

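The count of called genes, 20 under the main setting, was 12 with the values as deposited and 9 with spike-in centring. The lower genes, 17 in the main setting, numbered 10 and 4 there, and the higher ones, 3 in the main setting, numbered 5 with spike-in centring. The median difference of -0.12 became -0.059 as deposited and 0.037 with spike-in centring. The cause was not tested. Leaving out each sample in turn gave 17 to 20 called genes, 15 to 18 lower, 2 to 3 higher, and a median of -0.14 to -0.10. The dim filter left fewer genes to adjust over and gave 23 lower genes (30.3%, against 23.5% of the brighter genes). Over all genes, deviations from the group means correlated little between samples that share a number (r from -0.03 to 0.06 over 7 pairs). The closest control had the same number for 1 NASH model sample. Pairing that affects only some genes was not tested. A replicate block over the 13 samples with a shared number called 9 genes, 9 lower and 0 higher. The same samples without the block, an alternative added after seeing the data, called 13, with 1 higher. The shares of all genes called in these fits, and with single samples left out, are not given here. These counts therefore cannot be set against a background. Mrpl33 was called under all alternatives but this block. The called genes kept their sign under all alternatives. Many uncalled genes had differences on both sides of 0 across the alternatives, among them Mrpl47, Mrps18c, Mrpl12, Mrpl42, Mrpl54, Mrpl46, Mrpl1, Mrpl41 and Mrps16. Among the named genes 657 comparisons stayed on the same side of the threshold, 60 lost the call and 8 gained it. For the counts in other lists these numbers were 259, 41 and 24.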
